A study of Homo sapiens with 2 samples.

Results

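The genes of cholesterol synthesis, sterol uptake and transport, sterol efflux and storage, and sterol sensing were examined in HEC1A cells, an established line from a human adenocarcinoma of the endometrium. The list names 32 genes, and a gene was taken from the deposited table when a probe set carried its symbol and no other symbol in the platform annotation. This gave 30 genes of the 19775 with such a probe set. FDFT1 and CYP51A1 were not analysed here. Each gene is represented by its brightest probe set, by the mean over the arrays. The list was grouped into 8 early mevalonate enzymes, 9 analysed enzymes of the sterol steps, 4 genes of uptake and transport, 3 of efflux and storage and 6 regulators.

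Of the arrays, 1 held total RNA of HEC1A cells that overexpress EMP2, and 1 held RNA of HEC1A cells carrying a short hairpin vector that knocks EMP2 down. EMP2, epithelial membrane protein 2, is a small tetraspan membrane protein. Both lines were grown in McCoy's medium with 10% FBS and were otherwise untreated. Fetal bovine serum brings lipoprotein cholesterol to cells. Both lines are engineered, no unmodified HEC1A array was analysed here, and the labels do not say whether either line is a clone, so the data do not say which of the lines departs from the parent. With 1 array per group there is no replicate, no SD and no p-value, and the number of arrays limits the precision. In RNA of whole cultures, fewer cells that express a gene and less RNA per cell cannot be told apart. Each value is a log2 probe set value, and each difference is the value in overexpression minus that in knockdown.

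Cholesterol is built from acetyl-CoA through mevalonate and isoprenoid diphosphates to squalene, which is closed into a ring and trimmed to cholesterol. Cells sense sterol in the membrane of the endoplasmic reticulum. When sterol is scarce, the escort protein SCAP carries the membrane-bound factors SREBP1 and SREBP2 to the Golgi, where proteases release the part that enters the nucleus and raises transcription of synthesis and uptake genes. When sterol is plentiful, the INSIG proteins hold SCAP and the SREBPs back. Oxysterols that build up with excess cholesterol activate the nuclear receptor LXR, which raises the efflux transporters ABCA1 and ABCG1 and the ubiquitin ligase MYLIP.

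Upstream sequences are shown first for the genes past 1.5-fold that had a RefSeq window, and for SREBF2, because SREBPs bind sterol regulatory elements next to CCAAT boxes, which are sites of the partner factor NF-Y. Sequences are from RefSeq on GRCh38.p14 and cover the 250 bases before an annotated transcription start. Where RefSeq lists several starts for a gene, the window with most matches is printed. INSIG1, IDI1, HMGCS1, MSMO1 and NPC1 are genes at least 1.5-fold higher in overexpression, SREBF2 encodes SREBP2 itself, and INSIG2 was at least 1.5-fold lower. Capitals mark CCAAT on either strand (ATTGG where it lies on the other strand) and the letters CACNCCAC, the core of the sterol regulatory element, on either strand, with the letters AT before it included where they complete the full element. The windows are chr7:155297628-155297877 (plus strand), chr10:1048887-1049136 (minus strand), chr5:43313413-43313662 (minus strand), chr4:165327419-165327668 (plus strand), chr18:23586507-23586756 (minus strand), chr22:41832855-41833104 (plus strand) and chr2:118088221-118088470 (plus strand), in the order printed, each 5′ to 3′ along the gene.
INSIG1: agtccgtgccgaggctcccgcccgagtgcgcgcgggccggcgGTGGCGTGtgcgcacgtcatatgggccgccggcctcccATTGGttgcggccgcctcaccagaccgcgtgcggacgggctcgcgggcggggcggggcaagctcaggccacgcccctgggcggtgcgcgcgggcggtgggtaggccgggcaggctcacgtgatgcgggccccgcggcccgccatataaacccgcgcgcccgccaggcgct
IDI1: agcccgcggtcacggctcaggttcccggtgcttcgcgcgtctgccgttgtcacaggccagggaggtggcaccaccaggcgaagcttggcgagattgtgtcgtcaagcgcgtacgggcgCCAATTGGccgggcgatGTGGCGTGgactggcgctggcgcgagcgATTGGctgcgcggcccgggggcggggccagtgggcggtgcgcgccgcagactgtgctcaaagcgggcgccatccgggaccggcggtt
HMGCS1: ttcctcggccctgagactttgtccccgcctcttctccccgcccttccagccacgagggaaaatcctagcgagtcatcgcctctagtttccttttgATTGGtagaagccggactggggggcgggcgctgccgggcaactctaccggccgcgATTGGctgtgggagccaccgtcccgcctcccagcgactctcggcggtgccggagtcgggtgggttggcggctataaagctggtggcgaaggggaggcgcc
MSMO1: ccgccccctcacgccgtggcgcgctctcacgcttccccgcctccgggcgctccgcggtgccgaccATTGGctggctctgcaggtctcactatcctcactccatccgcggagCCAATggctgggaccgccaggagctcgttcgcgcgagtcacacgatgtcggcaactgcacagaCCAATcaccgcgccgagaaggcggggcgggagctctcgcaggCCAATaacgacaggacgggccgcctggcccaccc
NPC1: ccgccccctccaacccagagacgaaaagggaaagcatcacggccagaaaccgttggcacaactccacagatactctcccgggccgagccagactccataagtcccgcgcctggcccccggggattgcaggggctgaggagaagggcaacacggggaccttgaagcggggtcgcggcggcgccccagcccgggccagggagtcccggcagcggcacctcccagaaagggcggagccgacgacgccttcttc
SREBF2: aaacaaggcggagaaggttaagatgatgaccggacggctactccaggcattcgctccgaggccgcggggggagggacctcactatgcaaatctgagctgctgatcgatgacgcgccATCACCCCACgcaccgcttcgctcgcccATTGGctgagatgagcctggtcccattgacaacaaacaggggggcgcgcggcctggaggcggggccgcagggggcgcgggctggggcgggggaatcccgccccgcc
INSIG2: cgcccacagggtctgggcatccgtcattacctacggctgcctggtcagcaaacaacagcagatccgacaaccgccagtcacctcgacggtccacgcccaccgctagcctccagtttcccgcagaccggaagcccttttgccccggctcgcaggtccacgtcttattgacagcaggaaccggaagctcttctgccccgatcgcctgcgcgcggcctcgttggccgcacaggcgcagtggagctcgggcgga

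The SREBF2 window held the full element, the core with AT before it, whose first base lay 134 bases before the start, with a CCAAT box in the other orientation that began 106 bases before it. Positions below are those of the first base of each match. The INSIG1 window held the core at 208 bases and a CCAAT box at 170 bases before the start. In the IDI1 window the core lay at 115 bases, between CCAAT matches at 132, 129 and 87 bases, of which those at 132 and 129 overlap on opposite strands. HMGCS1 had CCAAT at 155 and 100 bases, and MSMO1 at 185, 139, 76 and 34 bases. The NPC1 and INSIG2 windows held neither. Promoter windows were found for 27 of the 30 genes, the others being ACAT2, SQLE and ABCG1. Of these 27, 26 also passed the brightness filter described below, all but ABCA1, and they are set beside all 9836 genes that passed it and had a window. CCAAT was in a window of 20 of the 26 (76.9%), against 41.4% of the 9836. The core CACNCCAC was present in 4 of the 26 (15.4%), namely IDI1, INSIG1, SC5D and SREBF2, against 6.49%, and also in ABCA1. The full element was found in SREBF2 alone of the 27, and in 0.142% of the 9836. The GC box GGGCGG was in 25 of the 26 (96.2%), against 74.3%. Both strands were searched for each motif, and the longer element always contains the core. These matches are descriptions of letters and show no binding.

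Array-wide checks are given once. The highest of 27 probe sets for Bacillus subtilis control transcripts read 5.85 and served as a background level. The 18 hybridization controls differed by at most 0.10 between arrays. EMP2 read 12.25 in overexpression and 9.51 in knockdown on its brightest probe set, in the direction of the labels, and its other 3 probe sets differed by 0.39, 0.23 and 0.00. All 10 markers of endometrial epithelium, EPCAM, PAX8 and keratins among them, were above the background level on both arrays, with summed log2 values of 107.6 in overexpression and 108.5 in knockdown. Single epithelial markers differed in both directions, CDH1 by 1.08, KRT19 by -0.97 and KRT8 by -0.77. Of 10 markers of liver and steroid-producing cells, which also have high cholesterol traffic, 7 were at or below the background level on at least 1 array, the bile acid enzyme CYP7A1 and the steroidogenic protein STAR among them, with sums of 51.6 and 52.0. Endothelial, leukocyte and fibroblast markers were likewise at or below it for 6 of 10, 6 of 8 and 5 of 10 genes, with sums of 53.2 and 53.8, 41.7 and 41.8, and 55.8 and 55.3 in overexpression and knockdown.

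A gene passed the brightness filter when at least 1 array read 6.40 or more, the median of all single-symbol probe sets, which 12061 genes did. Of the 30 sterol genes 28 passed, and both values of each of the 28 were at or above 6.40, so none passed through 1 array only. Those that did not pass were ABCA1 and ABCG1. Most sterol genes were somewhat higher in overexpression. Of the 28, 24 had a difference above 0, against 45.6% of all genes past the filter, and 6 were at least 1.5-fold higher, where the background was 4.97%. At least 1.5-fold lower were 2, against a background of 4.15%. The median of the 28 was 0.30 and that of all 12061 genes was 0.00. At 2-fold, 1 gene was higher (background 1.65%) and 1 lower (background 1.53%). By difference, 13 of the 28 fell in the top 10% of all genes past the filter, and 10 of these 13 were synthesis enzymes. Synthesis enzymes already made up 17 of the 28. The genes were listed with earlier results of these data known. The contrasts with all genes are therefore descriptions and give no independent support for a shift of the pathway.

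**Figure D1:**
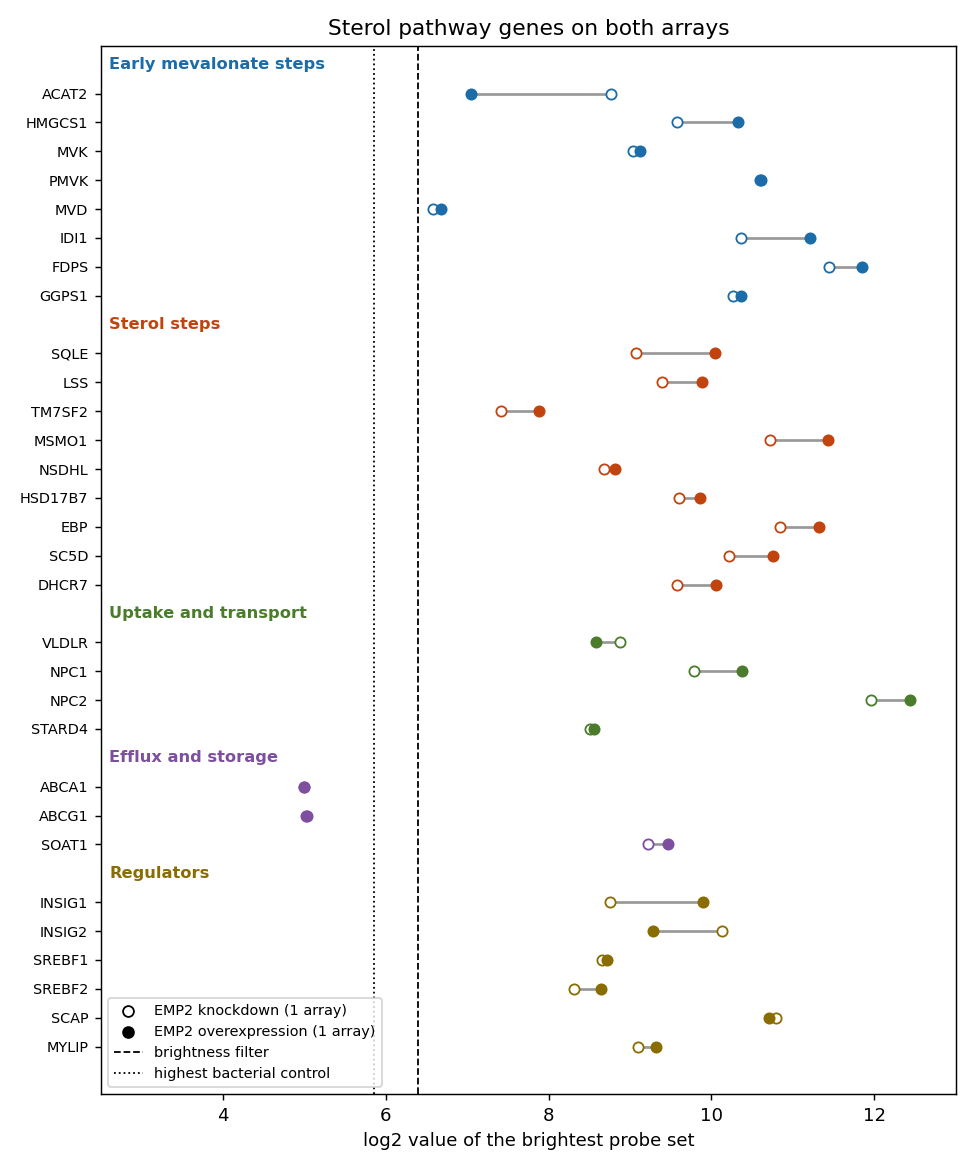
Log2 value of the brightest probe set (x axis) of each of the 30 genes in EMP2 overexpression (filled) and knockdown (open), 1 array each, grouped by role. The dashed line is the brightness filter at 6.40 and the dotted line the highest bacterial control at 5.85. Filled points lie right of open ones in most rows, ACAT2, VLDLR, INSIG2 and SCAP lie the other way, and ABCA1 and ABCG1 lie left of both lines. Levels of different probe sets are not comparable with each other.

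Among the early mevalonate enzymes, 7 of 8 had a difference above 0, but only HMGCS1 and IDI1 reached 1.5-fold, and ACAT2 differed strongly the other way. HMGCS1, the synthase that makes HMG-CoA, read 10.33 with overexpression against 9.57 with knockdown, which is 0.75 or 1.69-fold higher. Its second probe set read 7.48 and 6.65, a difference of 0.83. Both HMGCS1 probe sets were therefore higher in overexpression, by similar amounts.

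IDI1, which interconverts the isoprenoid building blocks isopentenyl and dimethylallyl diphosphate, read 11.21 and 10.36, a difference of 0.86 or 1.81-fold. A second IDI1 probe set read 11.19 and 10.32, and another read 8.79 and 8.75, a difference of 0.04. These 3 probe sets carry the suffix by which the manufacturer marks probes that may also bind other transcripts, and the IDI1 probe set without it, at 6.35 and 5.95, was below the filter. The IDI1 difference thus rests on a pair of the 4 probe sets, with the remaining ones at 0.04 and 0.40, and the mean of the 4 was 0.54, below 1.5-fold.

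FDPS, which makes farnesyl diphosphate, read 11.85 and 11.44, a difference of 0.41, and ranked above 91.1% of genes. RUSC1-AS1, a noncoding gene that overlaps FDPS in the RefSeq annotation, read 8.17 and 7.17, and its part in the FDPS value was not tested. The middle of the mevalonate route was nearly level between arrays. Mevalonate kinase (MVK) differed by 0.08, phosphomevalonate kinase (PMVK) by 0.01 and the decarboxylase MVD by 0.11. GGPS1, which makes the geranylgeranyl diphosphate used for protein prenylation, differed by 0.11 on 1 probe set and by -0.18 on the other. The early group had a median of 0.11.

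ACAT2, the cytosolic thiolase that joins acetyl-CoA units at the entry of the pathway, went against the other enzymes. Its single probe set read 7.04 with overexpression against 8.76 with knockdown. The difference of -1.72, or 3.30-fold lower, placed it 66th from the bottom of 12061 genes. In RefSeq ACAT2 overlaps SOD2, the mitochondrial superoxide dismutase, which read 9.02 and 9.73, a difference of -0.71. The 10 genes flanking ACAT2 had a median difference of 0.06. With 1 probe set, no second reading of ACAT2 was available.

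The sterol steps lay in a narrower band. All 9 were higher in overexpression, by 0.13 to 0.97, with a median of 0.48, and 2 of them reached 1.5-fold. Over all genes past the filter, 45.6% were above 0 and 4.97% at least 1.5-fold higher. Squalene epoxidase (SQLE), a rate-limiting oxygenase that turns squalene into squalene epoxide, read 10.04 against 9.07, which is 0.97 or 1.96-fold higher in overexpression. A second probe set read 8.44 against 7.55, also at least 1.5-fold higher. A further SQLE probe set read 6.55 against 5.81 and passed the filter through the overexpression array only, so it is no separate reading. MSMO1, the oxygenase that begins removal of methyl groups from the sterol ring, read 11.43 and 10.72 on its single probe set, a difference of 0.71 or 1.63-fold.

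The remaining 7 enzymes of the sterol steps were under 1.5-fold, and 5 of them lay close together between 0.47 and 0.55. SC5D, a sterol desaturase, read 10.76 and 10.21, a difference of 0.55. EBP, which shifts a double bond in the ring, read 11.33 and 10.84. LSS, which folds squalene epoxide into lanosterol, read 9.88 and 9.40. These 3 showed similar steps of 1.40-fold to 1.46-fold. DHCR7, which carries out a last reduction to cholesterol, read 10.05 and 9.58, with a second probe set at 9.18 and 8.78. TM7SF2, a sterol reductase, read 7.88 and 7.41. HSD17B7 and NSDHL, partners of MSMO1 in demethylation, differed least, by 0.27 and 0.13. The HSD17B7 probe set is also of the kind that may bind other transcripts. For EBP the 4 probe sets past the filter ranged from 0.04 to 0.49, all above 0.

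**Figure D2:**
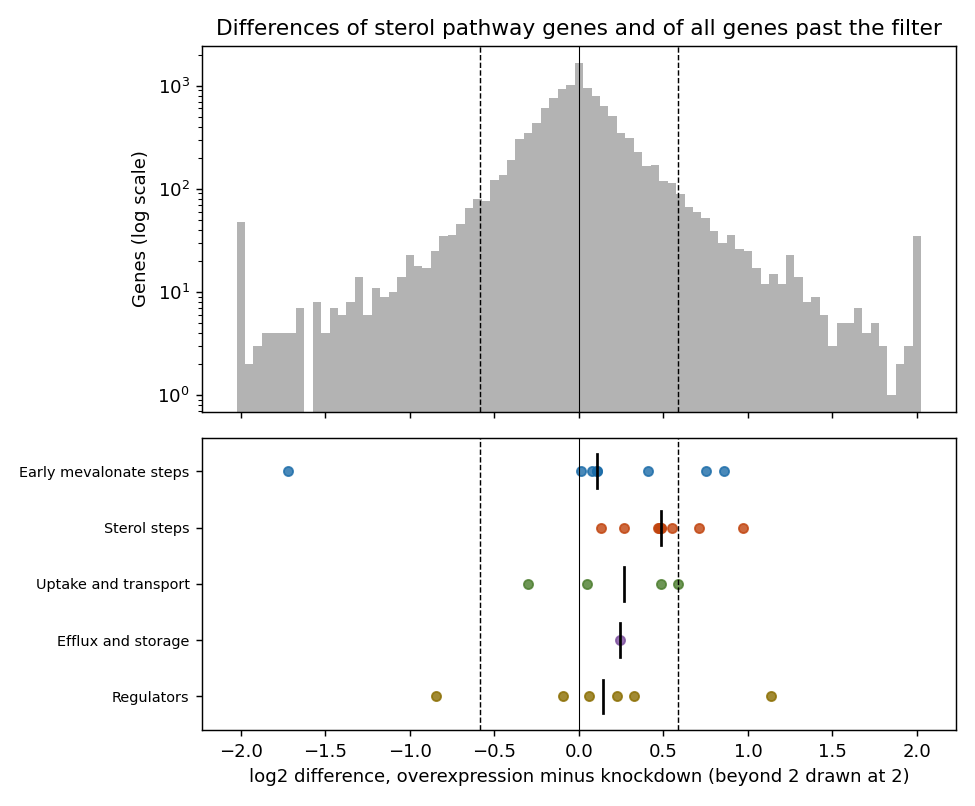
Top, histogram of the difference (overexpression minus knockdown, log2, x axis) of all 12061 genes past the filter, with the number of genes on a log scale. Bottom, the same difference for the 28 sterol genes past the filter by role, with a bar at each group's median; dashed lines mark 1.5-fold. The sterol steps all lie right of 0, with a median of 0.48, while the early mevalonate steps run from -1.72 to 0.86.

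Among genes of uptake and intracellular transport, RNA for the proteins that move cholesterol out of lysosomes was higher in overexpression. NPC2, the soluble lysosomal carrier that binds cholesterol freed from lipoproteins, read 12.44 and 11.96, a difference of 0.48. NPC1, the membrane protein to which NPC2 hands cholesterol, read 10.38 and 9.79, a difference of 0.59. NPC1 lies just inside the 1.5-fold threshold and SC5D, at 0.55, just outside it. The second NPC1 probe set past the filter differed by 0.24, so the call of NPC1 rests on the brighter probe set. With both arrays centred on their medians NPC1 was at 0.58, and with its 4 probe sets averaged at 0.30, both below 1.5-fold.

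VLDLR, a lipoprotein receptor of the same family as the receptor for low-density lipoprotein, read 8.58 and 8.88, a difference of -0.30. STARD4, a cytosolic sterol carrier, read 8.56 and 8.51, a difference of 0.05. Both lay in surroundings that were themselves lower in overexpression, with a median of -0.29 for the 8 flanking genes of VLDLR and of -0.29 for the 10 of STARD4.

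The efflux transporters were not above background. ABCA1, which loads cholesterol onto apolipoprotein A-I, read 4.99 on both arrays on its brightest probe set, and ABCG1, which passes cholesterol to high-density lipoprotein, read 5.02 and 5.03. All 4 probe sets of each gene were below the bacterial background of 5.85, so no fold is given for them. SOAT1, which esterifies cholesterol for storage in lipid droplets, was measured well above background at 9.47 and 9.23. Its 3 probe sets differed by 0.11 to 0.27, all above 0.

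The INSIG genes showed the sharpest contrast among the regulators. INSIG1, itself a target of SREBPs and so part of a feedback loop, read 9.89 in overexpression and 8.76 in knockdown on its brightest probe set. The difference of 1.14, or 2.20-fold, placed INSIG1 156th from the top of 12061 genes. The other INSIG1 probe sets read 9.02 against 7.91 and 7.70 against 6.91, so all 3 were at least 1.5-fold higher. INSIG2, which shares the retention function but is not a target of SREBPs in the same way, read 9.28 and 10.13 on its single probe set. The difference of -0.85, or 1.80-fold lower, placed INSIG2 249th from the bottom. The flanking genes of INSIG1 and INSIG2 had medians of -0.02 and 0.07.

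The genes of the factors that INSIG proteins hold back were under 1.5-fold, as was MYLIP, which is not among those factors. SREBF2, which encodes SREBP2, the form that mainly drives cholesterol synthesis, read 8.64 and 8.32, a difference of 0.33, with its other probe sets at 0.13 and 0.37. By difference SREBF2 ranked above 88.4% of genes past the filter. SREBF1, which encodes the SREBP1 forms, of which the better known role is in fatty acid synthesis, differed by 0.06 and -0.0041 on its 2 probe sets. Probe sets here do not separate the SREBP1a and SREBP1c transcripts. SCAP read 10.71 and 10.80, a difference of -0.09. MYLIP, the ubiquitin ligase that removes lipoprotein receptors, read 9.32 and 9.10, and its 4 probe sets past the filter differed by 0.21 to 0.40. Thus none of SREBF1, SREBF2, SCAP and MYLIP reached 1.5-fold at the RNA level, and arrays do not show SREBP cleavage.

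Some genes had further probe sets, which give a partial second reading within the same RNA. The counts of probe sets below include the brightest probe set of each of the 28 genes, so they partly repeat the counts of genes above. Of 52 probe sets of these genes past the filter, 46 (88.5%) had a difference above 0, against 46.6% of all 21144 single-symbol probe sets past the filter. Past 1.5-fold were 12 of the 52 upward and 2 downward, where 4.89% and 3.89% of all such probe sets were. The 2 downward are the single probe sets of ACAT2 and INSIG2, so they are no second reading. The dim SQLE probe set passed through 1 array only, and without it 45 of 51 were above 0 and 11 past 1.5-fold upward. In 12 of 14 genes with at least 2 probe sets past the filter, all of them lay on the same side of 0. The matching share over all genes was not computed, so this count is a description only. The exceptions were GGPS1 and SREBF1. Probe sets of a gene share the array and the RNA, so they are not replicates of the condition.

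**Figure D3:**
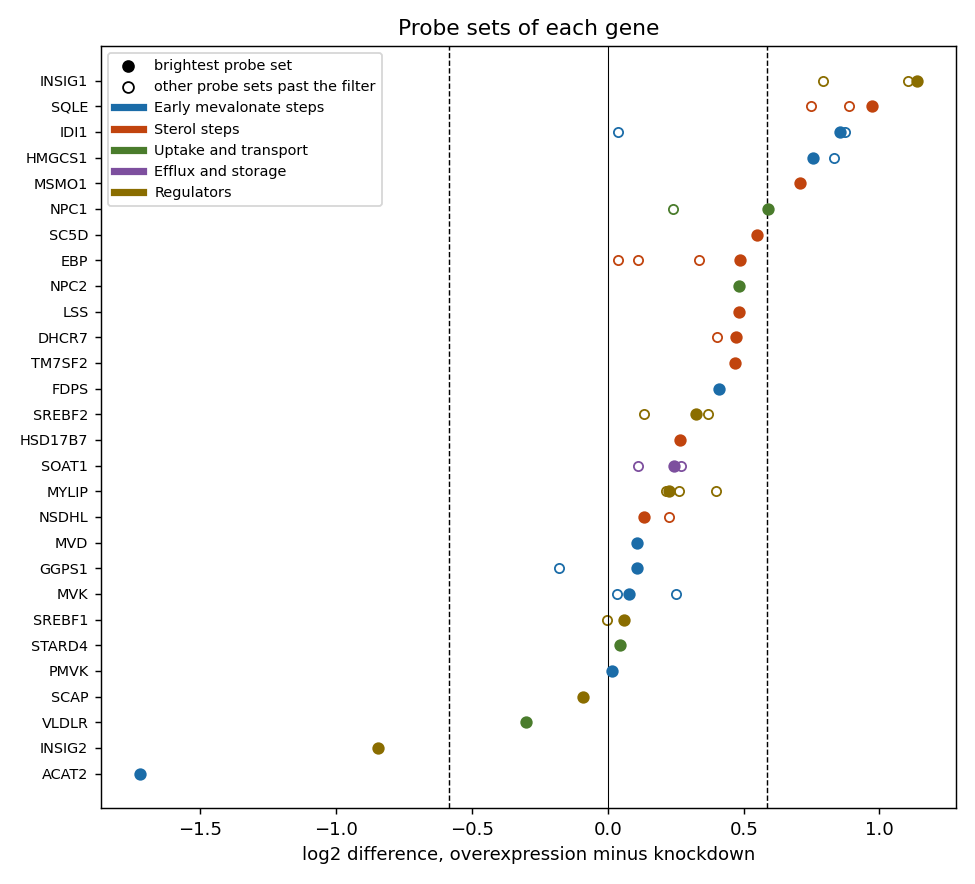
Difference (overexpression minus knockdown, log2, x axis) of each probe set past the filter for the 28 genes, ordered by the brightest probe set (filled), with further probe sets open; dashed lines mark 1.5-fold. INSIG1, SQLE (1 of whose probe sets passed the filter on 1 array only) and HMGCS1 are past 1.5-fold on every probe set shown, IDI1 has 1 probe set near 0, and ACAT2 and INSIG2 have a single probe set each.

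To see whether neighbouring genes differed jointly, each gene was set beside its nearest genes past the filter in RefSeq order. There were 5 on each side, except that VLDLR had 8 in all. For 24 of the 28 genes the median of these neighbours lay within 0.15 of 0. For LSS, on chromosome 21, the neighbours had a median of 0.50 and all 10 were above 0. For SC5D, on chromosome 11, the median was 0.38 and 9 of 10 were above 0. The LSS difference of 0.48 was thus no larger than that of its surroundings, and SC5D exceeded its own by 0.17. SQLE, MSMO1, HMGCS1, IDI1, NPC1 and INSIG1, the genes past 1.5-fold, had neighbour medians between -0.09 and 0.14. ACAT2 and INSIG2 had 0.06 and 0.07. Without LSS and SC5D the median of the sterol genes was 0.25, and the part of the chromosomal surroundings in the values of LSS and SC5D was not tested.

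**Figure D4:**
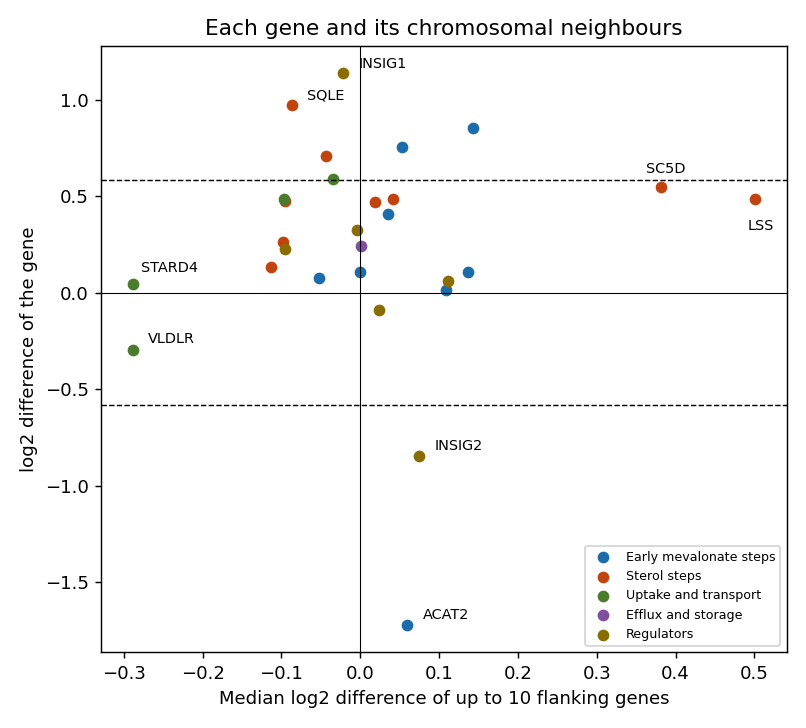
Difference of each of the 28 genes (y axis, overexpression minus knockdown, log2) against the median difference of its flanking genes past the filter (x axis, log2; 10 genes, or 8 for VLDLR); dashed lines mark 1.5-fold. LSS and SC5D stand at the right with flanking medians of 0.50 and 0.38, VLDLR and STARD4 at the left with -0.29, and INSIG1, SQLE, INSIG2 and ACAT2 near 0 on the x axis.

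Related genes outside the list were counted in the same way from lists of textbook membership. In lists this short a count of 0 or 1 is near the shares over all genes. For the machinery that senses, cleaves and degrades, namely the site proteases MBTPS1 and MBTPS2, the ubiquitin ligases of the endoplasmic reticulum and their partners, 1 of 12 filtered genes reached 1.5-fold upward and 0 downward, with a median of 0.11, where the shares over all genes were 4.97% and 4.15%. The higher gene was UBE2G2, a ubiquitin-conjugating enzyme of endoplasmic reticulum degradation, at 11.52 and 10.88, and its neighbours on chromosome 21 had a median of 0.51. MBTPS2 differed by -0.42 and MBTPS1 by 0.21.

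Of 24 genes for sterol transport and storage, 2 were at least 1.5-fold higher (4.97% over all genes) and 1 lower (4.15%), with a median of 0.00. The lower gene, ABCA5, passed the filter through the knockdown array only, and of the 23 genes that passed on both arrays 0 were lower. SCARB1, the scavenger receptor that takes up cholesterol esters from high-density lipoprotein, read 9.71 with overexpression against 8.52 with knockdown, which is 1.19 or 2.28-fold higher. Its second probe set past the filter read 8.52 and 7.55. The neighbours of SCARB1 had a median of -0.11. SCARB1 was thus higher on both probe sets while the surrounding genes were not. GRAMD1A, which carries cholesterol from the plasma membrane to the endoplasmic reticulum, was 1.52-fold higher, with its second probe set at 0.34. The transporter ABCA5 read 5.80 and 6.46, and the 5.80 did not exceed the bacterial background.

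Of 14 genes past the filter for dolichol, ubiquinone and protein prenylation, the branches that leave the pathway before squalene, 10 were below 0, with a median of -0.14. Of all 12061 genes past the filter, 5989 were below 0. None of the 14 reached 1.5-fold, where 4.97% of all genes did upward and 4.15% downward. Oxysterol and LXR genes had a median of 0.03, and 0 of 6 were past 1.5-fold, a count near the same shares. NR1H3, an LXR, read 7.80 and 7.74.

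Of 8 other enzymes that serve sterol synthesis, 1 reached 1.5-fold upward (4.97% over all genes) and 0 downward (4.15%), with a median of 0.15. The higher gene was ACAT1, the mitochondrial thiolase, at 12.13 and 11.47, a difference of 0.66. ACAT1 differed in the opposite direction from its cytosolic counterpart ACAT2, and its neighbours on chromosome 11 had a median of 0.34, with 10 of 10 above 0. POR, which passes electrons to the oxygenases of the pathway, differed by 0.43, and LBR, a sterol reductase of the nuclear membrane, by 0.00.

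The fatty acid genes that SREBPs also drive were also mostly above 0. Of 15 that passed the filter, 13 had a difference above 0, against 45.6% of all genes and 24 of the 28 sterol genes, with a median of 0.12. At 1.5-fold, 2 were higher (4.97% over all genes) and 0 lower (4.15%). ACSL1, which activates long-chain fatty acids, read 11.53 against 10.25, or 2.44-fold higher. The desaturase SCD5 read 9.32 and 5.58, at least 11.1-fold higher, and passed the filter through the overexpression array only. Of its 4 probe sets only this 1 passed the filter, so no second reading of SCD5 was available. Of the 14 genes that passed on both arrays, 12 were above 0 and 1, ACSL1, was past 1.5-fold. Fatty acid synthase (FASN) differed by 0.15, ATP citrate lyase (ACLY) by 0.27, the acetyl-CoA carboxylase ACACA by 0.01 and the desaturase SCD by 0.11. The median of the 17 analysed cholesterol synthesis enzymes was 0.47. No test of the difference between these lists is possible with 1 array per group.

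**Figure D5:**
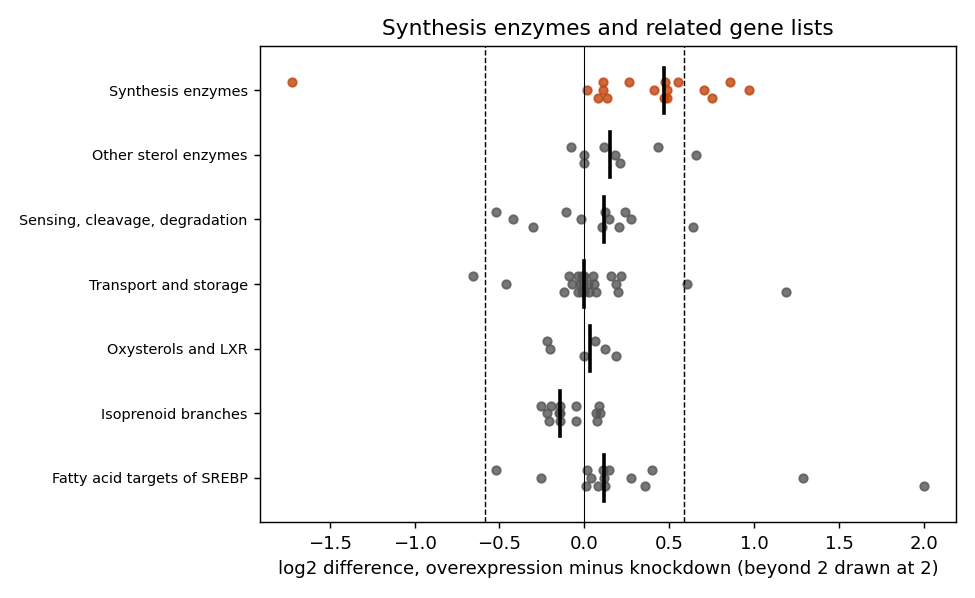
Difference (overexpression minus knockdown, log2, x axis, with SCD5 drawn at 2) of genes past the filter, for the 17 synthesis enzymes (orange) and 6 related lists (grey); points are spread vertically for visibility, bars are medians and dashed lines mark 1.5-fold. The synthesis enzymes have a median of 0.47 and the related lists between -0.14 and 0.15.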

How the data were processed

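The log2 probe set values are those deposited by the authors. The submitters' processing notes name Partek 6.6, with no further tool. Not given in the sources used here were background correction, normalization and summarization. The range, 2.01 to 14.72, is that of log2 values, though the base of 2 is not stated. The sorted values of both arrays differed by at most 0.05, so any shift of most genes together was taken out before deposit. Values were identical between arrays in 14.6% of 54675 probe sets. Total RNA was labelled with biotin by a whole-transcript kit, per the labels' protocols.

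Here 41097 probe sets with 1 symbol in the platform annotation were reduced to 19775 genes by the highest mean of both arrays. Genes were counted at 1.5-fold and 2-fold, with no test, since there was 1 array per group. A fold against a value at or below 5.85 is a lower bound. Members at least 1.5-fold apart, or with disagreeing probe sets, were described in full. Of each related list up to 4 genes past 1.5-fold were named, and further ones (MBTPS1, MBTPS2, NR1H3, POR, LBR, FASN, ACLY, ACACA, SCD) were picked after their values were seen. The members and lists were chosen with earlier results of these data known. Motifs were searched in RefSeq windows of 250 bases. Counting was tested on simulated data. Python 3.11.15, numpy 2.4.6, pandas 2.3.3 and matplotlib 3.10.9 were used. Alternatives were other ways to combine probe sets, other filters, centring, quantile normalization, a floor, another threshold and leaving genes out.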

Additional observations from a re-analysis of the deposited data

How the results depend on the processing

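No paired analysis was possible because there was 1 array per group. At a 2-fold threshold 1 sterol gene was higher and 1 lower, in place of 6 and 2. The median of 0.30 was 0.25 with all probe sets of a gene averaged, 0.25 with no brightness filter and 0.25 without LSS and SC5D. It lay between 0.25 and 0.33 over all settings run. Over the settings that kept the 1.5-fold threshold, 4 to 6 genes were higher and 2 lower. ACAT2, INSIG2, INSIG1, SQLE, HMGCS1 and MSMO1 stayed past 1.5-fold in 10 of 10 alternatives. Many of these alternatives could not move the values. Centring and quantile normalization could move them only slightly, because the sorted values of both arrays differed by at most 0.05. Other filters and the floor left the differences of these genes unchanged. ACAT2, INSIG2 and MSMO1 have 1 probe set each, so other ways to combine probe sets left theirs unchanged as well. IDI1 stayed past 1.5-fold in 8 of 9, with 0.54 when its probe sets were averaged. No IDI1 probe set was left past the filter without those marked as possibly binding other transcripts. NPC1 stayed past 1.5-fold in 7 of 10, with values from 0.30 to 0.62. None of the 8 genes past 1.5-fold reversed in any alternative that gave it a value. Leaving out probe sets marked as possibly binding other transcripts, and subtracting the flanking median, were chosen after seeing the data. Values near the bacterial background limit ABCA1 and ABCG1.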
